A study of Mus musculus with 10 samples.

Results

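Ribosome footprints on 34 mouse genes for translation initiation factors and for the kinases that act on eIF2 were followed through neocortex development. The genes were chosen by name, as the factors eIF1, eIF1A, eIF2, eIF2B, eIF3, eIF5, eIF5B and eIF6, the eIF2 alpha kinases, the alternative Met-tRNA carriers Eif2a and Eif2d, and Eif4h. The cap-binding factors of eIF4F were left out. All 34 were found among the 22373 genes of the table, and all 34 reached the minimum of 32 footprints in some stage, as did 13484 genes in all. Neocortex came from wild-type CD-1 mice of 4 embryonic stages (E12.5, E14, E15.5 and E17, counted in days after timed mating) and of P0, the day of birth, with 2 libraries per stage. No group carried a mutation or a drug treatment, and each library pooled the brains of both sexes without distinction, so a replicate is a pool. RNase T1 and RNase A were used to digest the lysates, and the mRNA fragments protected by ribosomes were sequenced. The number of footprints on a gene reflects both its mRNA level and the occupancy of that mRNA by ribosomes. It does not measure the factor's protein level or the phosphorylation of eIF2.

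Initiation begins when eIF2, bound to GTP, delivers the initiator Met-tRNA to the small ribosomal subunit. The subunit also carries eIF1, eIF1A, eIF3 and eIF5, and it scans the 5' leader of an mRNA for a start codon. On start codon recognition eIF2 hydrolyses its GTP with the help of eIF5 and leaves, and eIF5B joins the large subunit. eIF2B, an exchange factor of 5 subunits, reloads eIF2 with GTP. Each of 4 kinases can phosphorylate the alpha subunit of eIF2, which turns eIF2 into an inhibitor of eIF2B, lowers bulk initiation and favours a few mRNAs such as that of the transcription factor Atf4. This is the integrated stress response. Mutations of eIF2B subunits cause a childhood white matter disease, and eIF2 alpha phosphorylation is known for its role in memory in the adult brain.

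Sequences at the annotated gene starts are given for some of the members, as a description. All are from RefSeq on GRCm38.p6, and a sequence was found for 29 of the 34 members. Messenger RNAs of the ribosomal proteins begin with a run of C and T bases (a 5' terminal oligopyrimidine, or TOP, tract). The windows hold 15 bases before and 15 bases from the annotated first base onward, and capitals mark the uninterrupted run of C and T that contains the first base, or the first base alone where it is A or G.
Eif3f, chr7:108934400-108934429, plus strand: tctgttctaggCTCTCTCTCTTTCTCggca
Eif3l, chr15:79075208-79075237, plus strand: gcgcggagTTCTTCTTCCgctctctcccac
Eif2s3x, chrX:94212637-94212666, minus strand: ctgccgagcaTTTTCCTTTTCTCTCCgagc
Eif3m, chr2:105017013-105017042, minus strand: ttttccggtcggcgtGtttctggatcggag
Eif3d, chr15:77970810-77970839, minus strand: gtggtagggccatttAcgacagcgctggtc
The run was 15 bases long at Eif3f, 10 at Eif3l and 16 at Eif2s3x. These runs, and that of Eif2b5 below, start before the annotated first base. Their lengths thus include bases outside the annotated mRNA and are not lengths of a TOP tract. A run at least this long held the first base of 0.855%, 2.37% and 0.706% of all annotated starts in the table of 32851 promoters. With Eif2b5, whose run of 21 bases was the longest and is not printed, 4 members had a run of at least 7 bases. Of all starts 5.28% had one. Runs are thus more frequent among the windows printed than among the members. Of these 4, Eif3f, Eif3l and Eif2b5 were called lower at E17 than at E12.5 and Eif2s3x was not, with log2 changes of -0.51, -0.73, -0.39 and -0.27. At P0, Eif3f and Eif3l were called lower and the others were not. Eif3m and Eif3d, with no run at the start, were called lower at both stages. Of all 34 members, 16 were called lower at E17 and 12 at P0. Of all genes tested, 27.8% and 32% were. Whether the run has a part in these changes was not tested.

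A second window is shown for Eif2ak2, because this gene had the largest change of all members. Its product, PKR, is activated by double-stranded RNA and its gene is a known target of interferon. Capitals mark the letters GAAA, 2 bases of any kind and GAAA again, a form of the interferon-stimulated response element.
Eif2ak2, chr17:78882535-78882564, minus strand: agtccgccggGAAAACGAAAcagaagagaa
The match begins 18 bases after the annotated start. Searched on both strands of the 300 bases from 250 before to 50 after each start, the letters were present in 3.44% of all promoters and in those of 4 members, the others being Eif2s1, Eif3a and Eif2s3x. In Eif2s3x the match overlaps the run of C and T printed above. A match is a description of the letters and not a measured site.

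Depth ranged from 21378041 to 36129988 counts per library, except for P0 replicate 1 with 7544404. The 34 genes took between 0.273% and 0.384% of a library's counts, and the lowest count of any of them in a library was 2. Levels are given as CPM, counts divided by a library size that TMM scales so that the bulk of genes is centred. This choice matters here, since histone genes took up to 38.5% of the counts at E12.5 and 6.32% in P0 replicate 2. With plain total counts as library sizes the median log2 change of all genes was 0.29 at E15.5 against E14 and 0.51 at P0 against E12.5, and with TMM it was near 0. A fall is therefore a fall relative to most other genes. Levels of different genes are not compared, since longer coding sequences collect more footprints. The P0 replicates stood apart from each other. The SD over the 34 members of the log2 ratio between replicates was 0.23, 0.19, 0.097 and 0.11 at the embryonic stages and 0.59 at P0. At P0, 14 members were over 1.5-fold higher in replicate 2 and 1, Eif2ak3, in replicate 1. In P0 replicate 1, 20 members lay below all 8 embryonic libraries, against 5 in replicate 2. The shares of all genes past these limits were not computed, so the counts only describe the members. Results that involve P0 are therefore given beside those of E17, whose replicates were close.

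Marker genes of the neocortex were present in every library, and those of other tissues and cell types changed over the stages. The summed level of 10 neocortex genes was between 742 and 1117 CPM in all libraries. This sum hides opposite moves: from E12.5 to P0, 3 of the 10 were called higher and 4 lower, with log2 changes from -3.45 to 4.07. Pax6 and Eomes are also among the progenitor genes, and Neurod6 among the neuronal genes. The 10 neuronal genes summed to 2212 and 2266 CPM at E12.5 and to 7938 and 8987 CPM at P0, and 10 cortical progenitor genes to 1275 and 1362 CPM at E12.5 and to 198 and 213 CPM at P0. The 8 choroid plexus genes summed to 280 to 333 CPM at E12.5, 1128 to 1134 CPM at E14 and at most 15.3 CPM from E15.5 on, where Kcnj13, Aqp1, Folr1 or Otx2 were at 0 in some libraries. The 8 genes of meningeal fibroblasts summed to 105 to 110 CPM at E12.5, 71.1 to 79.4 CPM at E14 and at most 12.9 CPM later. The 10 red blood cell genes summed to 11214 to 11607 CPM at E12.5, 6906 to 7422 CPM at E15.5, 7253 to 7260 CPM in the E17 pair and 1439 to 1862 CPM at P0. In the other direction, 8 genes of the ganglionic eminences and interneurons summed to 14.3 to 14.8 CPM at E12.5 and 163 to 170 CPM at P0. The 13 genes of glia, endothelium and microglia summed to 44.8 to 46.7 CPM at E12.5 and 101 to 138 CPM at P0. That list was split, with 5 genes called higher and 5 lower between these stages. Its median log2 change was -0.47, with a range from -3.60 to 7.12. These shifts run along the same axis as age. Their part in the results below was not tested, and a change in cell makeup cannot be told apart from a change within cells in these bulk samples.

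Relative to most other genes, more initiation genes were lower than higher at the end of the series, and most changes were modest. Between E12.5 and P0, limma-voom called 12 members lower, 1 higher and 21 in neither direction (adjusted p under 0.05 and a log2 change of at least 0.32 either way). That is 38.2% of members called. Of all genes tested 62.1% were called, 32% lower and 30.1% higher. The share of members called lower was thus near that of all genes, and the share called higher was well below it. The median fitted log2 change of the members was -0.40 and that of all genes was -0.013. Between E12.5 and E17, a comparison added after the data were seen that sets E17 in place of P0 (the P0 libraries still entered the estimate of spread), 16 members were lower and 1 was higher, with a median of -0.38, and 54.7% of all genes were called, 27.8% lower and 26.9% higher. With total counts as library sizes the calls from E12.5 to P0 were 9 higher and 2 lower and the median of the members turned to 0.13, but once the median of all genes was subtracted it was -0.39 under both scalings, and 29 of 34 members lay below the median of all genes under both. In terms of stage means, 20 members were highest at E12.5, and 26 were lowest at E17 or P0. The share of all genes with such an order was not computed, so these counts only describe the members.

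**Figure D1:**
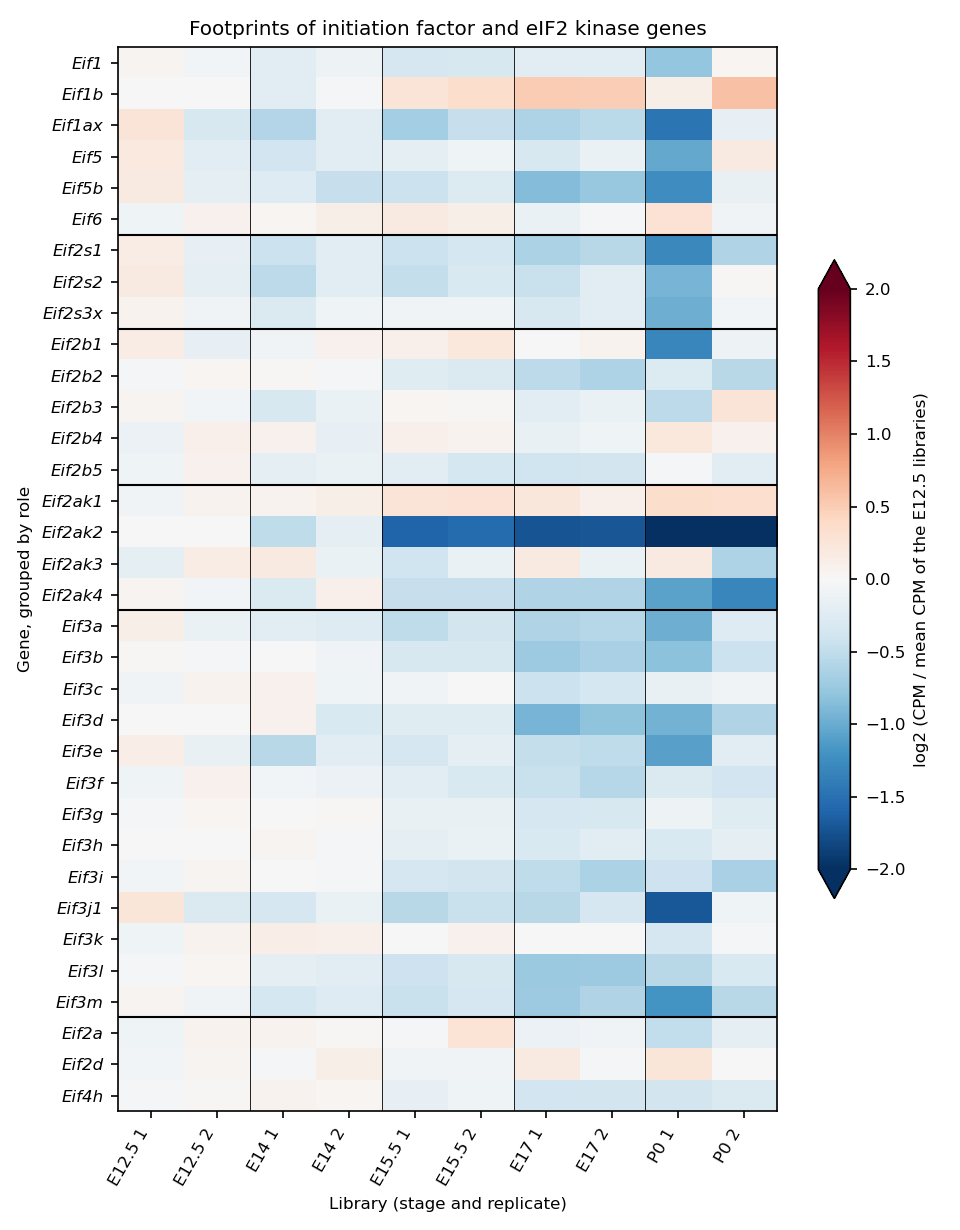
Level of each of the 34 genes (rows, grouped by role) in each of the 10 libraries (columns, stage and replicate), as the log2 ratio of its TMM-scaled CPM to the mean of the E12.5 libraries. Blue is lower and red higher than at E12.5, and the scale saturates at 2 either way. Eif2ak2 is the darkest row from E15.5 on, most eIF3 rows turn blue by E17, Eif1b turns red, and the P0 columns differ from each other. With total counts as library sizes the colours of the later columns would shift towards red, and the median member from E12.5 to P0 would be at 0.13.

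The 4 eIF2 alpha kinases did not move together. From E12.5 to P0, 2 were called lower and 1 higher, or 75%, where 62.1% of all genes were called. Eif2ak2 (PKR) and Eif2ak4 (GCN2, which senses uncharged tRNA) fell through development, Eif2ak1 (HRI, first known for sensing haem) rose slightly, and no change of Eif2ak3 (PERK, which senses unfolded protein in the endoplasmic reticulum) was called.

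Eif2ak2 (ENSMUSG00000024079) stood at 2.86 and 2.80 CPM in the E12.5 libraries, 1.99 and 2.47 in the E14 pair, 0.934 and 0.971 at E15.5, 0.857 and 0.864 in the E17 pair, and 0.218 and 0.549 at P0. At each step, both libraries of the later stage were below both of the earlier one. Its largest fitted step was that to E15.5, 2.34-fold lower than at E14, or -1.23 on the log2 scale (SE 0.21, limma-voom adjusted p = 0.00289). The steps from E12.5 to E14 (-0.33), from E15.5 to E17 (-0.14) and from E17 to P0 (-0.82) did not pass the test. At P0 it was 5.74-fold lower than at E12.5, a fitted value of -2.52 (SE 0.32, limma-voom adjusted p = 0.000195), and from E12.5 to E17 it was -1.70 (SE 0.22, limma-voom adjusted p = 0.000286). The counts behind these levels were low. They ran from 45 to 78 in the 4 earliest libraries, from 23 to 31 at E15.5 and E17, and were 2 and 23 at P0. Both the step to E15.5 and the change to P0 were nonetheless called under every one of the 19 alternative settings that gave a value, total-count scaling and each left-out library among them. For the change to P0 these include the setting with E17 in place of P0. The step to E15.5 falls where choroid plexus genes went from at least 1128 to at most 13.9 CPM and meningeal genes from at least 71.1 to at most 5.32 CPM. In the same step 10 of 10 progenitor genes were called lower and 10 of 10 neuronal genes higher. Of 13 genes of glia, endothelium and microglia, 8 were called lower and 2 higher, and 36.1% of all genes were called. The part of any of these in the step of Eif2ak2 was not tested.

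Eif2ak4 (ENSMUSG00000005102) was at 14.2 and 13.1 CPM at E12.5, 11.2 and 14.7 in the E14 pair, 9.88 and 9.92 at E15.5, 9.05 and 8.97 in the E17 pair, and 6.53 and 5.51 at P0. The E12.5 and E14 libraries overlapped, and the libraries of every later stage lay below those of the stage before it. From E12.5 to P0 it was 2.33-fold lower, or -1.22 on the log2 scale (SE 0.16, limma-voom adjusted p = 0.000249). This was called under all 20 alternative settings, with E17 in place of P0 among them. From E12.5 to E17 the log2 change was -0.60 (SE 0.15, limma-voom adjusted p = 0.00894). Of the single steps, that from E17 to P0 passed the test, with -0.63 (SE 0.16, limma-voom adjusted p = 0.0295). That call was lost in 10 of 19 alternatives: without P0 replicate 2 the log2 change was -0.46, and without either E17 library or either E15.5 library it stayed between -0.62 and -0.63. It was the only one of the 34 members called in that step, 2.94%, where 20.5% of all genes were called.

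Eif2ak1 (ENSMUSG00000029613) went the other way by a small amount. It stood at 7.70 and 8.45 CPM at E12.5, 8.44 and 8.72 in the E14 pair, 9.70 and 9.88 at E15.5, 9.40 and 8.71 in the E17 pair, and 10.3 and 10.2 at P0. Both P0 libraries were above all 8 others. The change from E12.5 to P0 was 1.27-fold, or 0.34 on the log2 scale (SE 0.11, limma-voom adjusted p = 0.0249). The call was lost in 8 of 20 alternatives, among them without E12.5 replicate 1 (0.28), without E12.5 replicate 2 (0.41) and without P0 replicate 2 (0.35). With total counts it was called at 0.87. With TMM the change to E17, 0.16, was not called, and as the setting with E17 in place of P0 it is among those 8.

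Eif2ak3 (ENSMUSG00000031668) was at 3.25 and 4.08 CPM at E12.5, 4.15 and 3.33 in the E14 pair, 2.77 and 3.34 at E15.5, 4.13 and 3.34 in the E17 pair, and 4.13 and 2.39 at P0. All libraries lay between 2.39 and 4.15 CPM, with no order over time. The log2 change from E12.5 to P0 was -0.42 (SE 0.27, limma-voom adjusted p = 0.198). Its sign depended on P0 replicate 2, without which the value was 0.17, and on the scaling, with 0.10 under total counts, while without P0 replicate 1 it was called lower at -0.63.

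**Figure D2:**
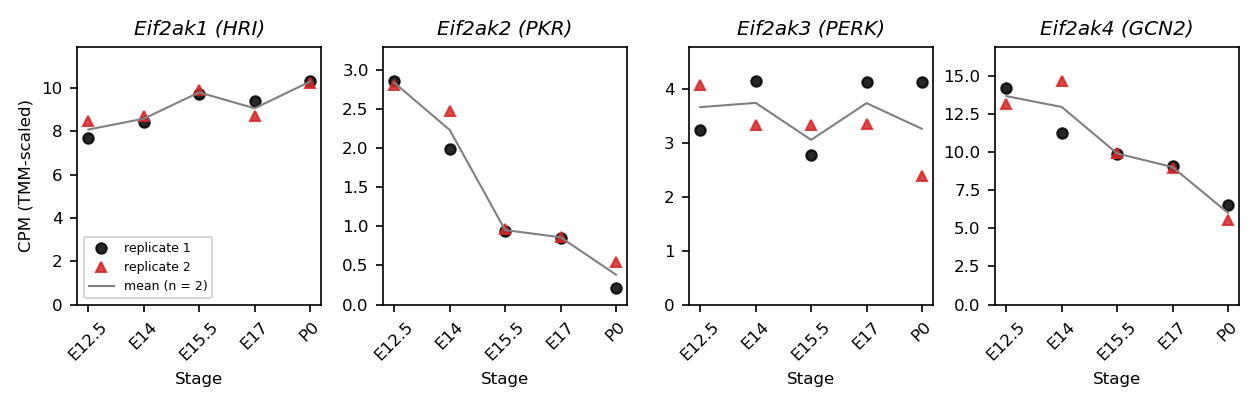
TMM-scaled CPM of the 4 eIF2 alpha kinase genes by stage. Black circles are replicate 1, red triangles replicate 2, and the grey line joins the means of 2 libraries; each panel has its own axis from 0. Eif2ak2 drops from 2.83 CPM at E12.5 to 0.953 at E15.5, Eif2ak4 from 13.7 CPM at E12.5 to 6.02 at P0, Eif2ak1 lies between 7.70 and 10.3 CPM, and Eif2ak3 shows no ordered change.

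Among genes that act on the kinases or undo their effect, 4 of 8 tested were called lower and 1 higher at P0 than at E12.5. That is 62.5% of them, where 62.1% of all genes were called. Hspa5, the chaperone BiP that binds PERK in the endoplasmic reticulum, was at 259 and 230 CPM at E12.5 and 64.7 and 76.4 CPM at P0, a fitted log2 fold of -1.78 (SE 0.12, limma-voom adjusted p = 6.15e-06). Most of this lay between E14 (181 and 196 CPM) and E15.5 (71.0 and 66.7 CPM). Dnajc3, a cochaperone known as an inhibitor of PKR and PERK, went from 6.05 and 4.82 CPM to 1.31 and 2.005 CPM (-1.53, SE 0.20, limma-voom adjusted p = 0.00026), with a called step of -1.08 at E15.5. The called step of Eif2ak2 and the loss of choroid plexus and meningeal genes lay in that interval too. So did the fall of progenitor genes and the rise of neuronal genes. The part of any of these in the change of Hspa5 and Dnajc3 was not tested. In the next step Hspa5 was called higher, with 97.6 and 109.9 CPM in the E17 pair (0.59, SE 0.12, limma-voom adjusted p = 0.0248). Dnajc3 stood at 3.27 and 3.30 CPM there (0.64, not called) and Eif2ak2 changed by -0.14. Ppp1r15a (GADD34), the stress-induced subunit that brings phosphatase to eIF2 alpha, was at 0.495 and 0.935 CPM at E12.5 and 1.31 and 1.65 CPM at P0, on 9 to 69 counts (1.08, SE 0.37, limma-voom adjusted p = 0.0302). The other genes of this list called lower were Ppp1r15b, its constitutive counterpart, and Ppp1ca, the catalytic subunit. Impact, an inhibitor of GCN2 activation that is abundant in neurons, was at 7.10 and 6.02 CPM at E12.5 and 3.81 and 7.37 CPM at P0, with no change called (-0.11, SE 0.25).

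Genes downstream of eIF2 alpha phosphorylation gave no common direction. Of 9, Trib3 had too few counts to test, 2 were called higher, 1 lower and 5 in neither direction from E12.5 to P0. That is 37.5% of the 8 tested, where 62.1% of all genes were called. Asns, asparagine synthetase, rose from 16.3 and 17.2 CPM at E12.5 to 21.5 and 20.9 at E15.5, 23.0 and 27.0 at E17 and 52.5 and 52.5 at P0, with no overlap between E12.5 and P0 (1.65, SE 0.11, limma-voom adjusted p = 4.93e-06). Chac1, a glutathione-degrading enzyme induced through Atf4, was at 0.440 and 0.673 CPM at E12.5 and 3.81 and 1.60 CPM at P0, on 8 to 67 counts (1.74, SE 0.65, limma-voom adjusted p = 0.0453). Cebpg, a partner of Atf4, went from 69.7 and 68.6 CPM at E12.5 to 59.3 and 56.2 at E17 and 14.7 and 26.9 at P0 (-1.71, SE 0.23, limma-voom adjusted p = 0.000281). Atf4 itself was at 9.63 and 7.44 CPM at E12.5 and 10.01 and 6.75 at P0, and the stages overlapped (-0.12, SE 0.21, limma-voom adjusted p = 0.653).

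The eIF2 subunits, which bind GTP and the initiator tRNA, were fitted lower at P0 than at E12.5 with TMM, and the alpha subunit alone was called. That is 33.3% of the 3 genes, where 32% of all genes were called lower. Eif2s1 (ENSMUSG00000021116), the subunit that the kinases phosphorylate, was at 86.5 and 69.9 CPM at E12.5, 58.3 and 66.5 in the E14 pair, 57.9 and 61.4 at E15.5, 50.3 and 53.3 in the E17 pair, and 31.9 and 51.5 at P0. Every library after E12.5 was below both E12.5 libraries. The log2 change to P0 was -0.90 (SE 0.21), or 1.86-fold lower (limma-voom adjusted p = 0.00545), and to E17 it was -0.58 (SE 0.20, limma-voom adjusted p = 0.0378). With total counts as library sizes the change to P0 was -0.36 and not called.

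Eif2s2 (ENSMUSG00000074656), the beta subunit, was at 179 and 138 CPM at E12.5, 110 and 135 in the E14 pair, 113 and 128 at E15.5, 116 and 137 in the E17 pair, and 83.6 and 161 at P0. Eif2s3x (ENSMUSG00000035150), the X-linked gamma subunit that holds GTP, was at 178 and 162 CPM at E12.5, 139 and 159 in the E14 pair, 162 and 162 at E15.5, 136 and 145 in the E17 pair, and 86.0 and 163 at P0. In both genes P0 replicate 1 was the lowest of all libraries, and P0 replicate 2 lay within the E12.5 values. Neither change to P0 was called, at -0.40 (SE 0.28) for Eif2s2 and -0.48 (SE 0.25) for Eif2s3x. Without P0 replicate 2 both were called lower, at -0.91 and -0.98, and without P0 replicate 1 Eif2s2 was at 0.042. Eif2s3y, the Y-linked copy of the gamma subunit and not a member of the set, was at 4.84 and 2.99 CPM at E12.5 and 5.76 and 9.24 CPM at P0 (1.09, SE 0.29, limma-voom adjusted p = 0.01). The pools mixed the sexes in proportions not given here, so the part of that mix in this gene was not tested.

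A share within the complex does not depend on how libraries are scaled. Of the counts on the 3 eIF2 genes, Eif2s1 took 19.5% and 18.9% at E12.5, 18.9% and 18.4% in the E14 pair, 17.4% and 17.5% at E15.5, 16.6% and 15.9% at E17, and 15.8% and 13.7% at P0. From E15.5 on, the libraries of each stage were below all libraries of the stages before it. This is a description of 10 libraries and was not tested. The level of Eif2s2, for comparison, differed by 1.93-fold between the P0 replicates.

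**Figure D3:**
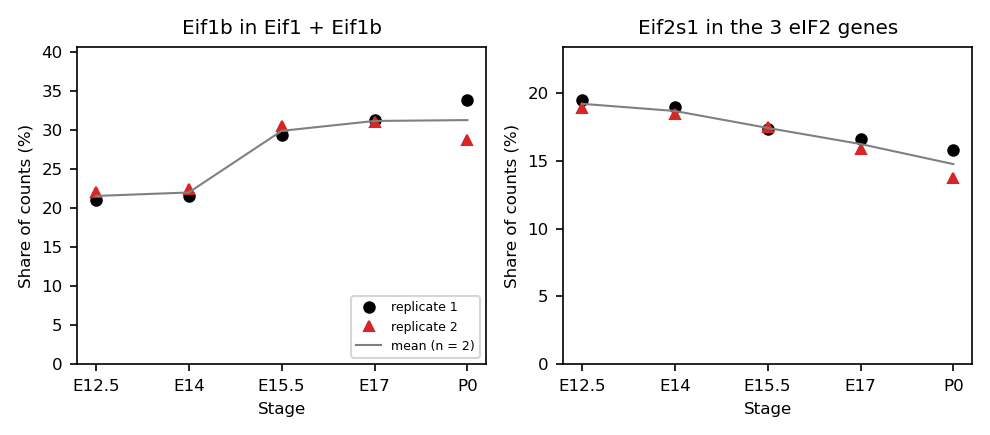
Left, Eif1b as a percentage of the counts on Eif1 and Eif1b. Right, Eif2s1 as a percentage of the counts on Eif2s1, Eif2s2 and Eif2s3x. Circles and triangles are the replicates and grey lines join stage means; both axes start at 0. The Eif1b share steps from between 21.0% and 22.4% in the E12.5 and E14 libraries to at least 28.7% in all later ones, and the Eif2s1 share goes from 19.5% at its highest to 13.7% in P0 replicate 2.

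Of the 5 eIF2B subunits, Eif2b2 was called lower at P0 and the others were not called. That is 20% of the subunits, where 32% of all genes were called lower. Eif2b2 (ENSMUSG00000004788), the beta subunit of the regulatory part, was at 20.8 and 21.8 CPM at E12.5, 21.6 and 20.9 in the E14 pair, 18.1 and 17.4 at E15.5, 14.8 and 13.9 in the E17 pair, and 17.7 and 14.5 at P0. The E12.5 and E14 libraries lay together and all 6 later ones below them. The log2 change was -0.58 (SE 0.12, limma-voom adjusted p = 0.00316) at E17 and -0.44 (SE 0.12, limma-voom adjusted p = 0.0111) at P0. With total counts as library sizes the change to P0 was 0.083, and the call to P0 was lost without E12.5 replicate 2 (-0.41) or P0 replicate 2 (-0.27). Eif2b5, the catalytic epsilon subunit, was called lower at E17 (-0.39, SE 0.11, limma-voom adjusted p = 0.0187) and not at P0 (-0.13, SE 0.12). Eif2b1, Eif2b3 and Eif2b4 had log2 changes to P0 of -0.61, -0.06 and 0.14. For Eif2b1 the P0 libraries were at 20.7 and 47.9 CPM, against 45.9 to 59.2 CPM in all embryonic libraries.

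Among the factors of start codon recognition and subunit joining, the pair Eif1 and Eif1b shifted in proportion. Both code for near-identical forms of eIF1, which guards against initiation at the wrong codon. Eif1 (ENSMUSG00000035530) was at 558 and 514 CPM at E12.5, 457 and 498 in the E14 pair, 423 and 428 at E15.5, 458 and 458 in the E17 pair, and 312 and 550 at P0. Eif1b (ENSMUSG00000006941) was at 149 and 146 CPM at E12.5, 126 and 144 in the E14 pair, 176 and 188 at E15.5, 208 and 207 in the E17 pair, and 160 and 222 at P0. All later libraries of Eif1b were thus above all libraries of E12.5 and E14, whereas those of Eif1 overlapped. From E12.5 to E17 Eif1b rose by 0.50 on the log2 scale (SE 0.15, limma-voom adjusted p = 0.0203) and Eif1 changed by -0.23 (SE 0.22, not called). Eif1b missed the threshold both at E15.5 against E14 (0.43, SE 0.15, limma-voom adjusted p = 0.0503) and at P0 against E12.5 (0.36, SE 0.15, limma-voom adjusted p = 0.0611). The change to P0 was called in 6 of 20 alternatives, among them total counts (0.89) and without P0 replicate 1 (0.59), and ran from 0.12 to 0.89 over all of them, with adjusted p from 0.000685 to 0.34. The change to E17 is among those 6, as the setting with E17 in place of P0. Eif1b was 1 of 14 members past the F test over all stages (limma-voom adjusted p = 0.0238), a test that 63.8% of all genes passed.

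The share of Eif1b in the counts of the pair was 21.0% and 22.1% at E12.5, 21.6% and 22.4% in the E14 pair, 29.3% and 30.5% at E15.5, 31.3% and 31.1% at E17, and 33.9% and 28.7% at P0. The early and later libraries did not overlap. The lowest count behind a share was 1470, on Eif1b in P0 replicate 1. How reads that match both genes were assigned in this table is not stated in the sources used here, so the absolute share is uncertain.

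The rest of this group gave no call at P0. Eif5b, the GTPase that joins the large subunit, was called lower at E17 (-0.79, SE 0.28, limma-voom adjusted p = 0.04) but not at P0 (-0.51, SE 0.29), where its libraries stood at 6.31 and 13.4 CPM. Eif1ax, which works with eIF1 in scanning, and Eif5, the GTPase activator of eIF2, had log2 changes to P0 of -0.73 (SE 0.37) and -0.35 (SE 0.33), and their P0 replicates differed by 2.45-fold and 2.29-fold. Eif6, an anti-association factor of the large subunit, ranged from 168 to 225 CPM over all libraries (0.10, SE 0.13).

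eIF3, the scaffold that binds the small subunit and recruits mRNA, held most of the members that fell. All 13 subunit genes were fitted below 0 from E12.5 to P0 with TMM, with a median of -0.54, and 7 of 13 were called lower, 53.8%, where 32% of all genes were called lower. With total counts 7 of 13 were below 0 and the median was -0.015, but after the shift of all genes was taken off it was -0.53 under both scalings, and all 13 subunits lay below the median gene. From E12.5 to E17 the median was -0.51 and 9 of 13 were called lower, where 27.8% of all genes were called lower. By stage means, 9 of 13 were highest at E12.5, 13 of 13 were lowest at E17 or P0, and 7 fell at each of the 3 embryonic steps. The share of all genes with these orders was not computed. For 10 of 13 both P0 libraries were below both E12.5 libraries, which held for 38.8% of all genes.

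The subunit with the largest called fall to P0 was Eif3m (ENSMUSG00000027170), one of the PCI-domain subunits of the core. It was at 191 and 175 CPM at E12.5, 143 and 152 in the E14 pair, 135 and 145 at E15.5, 110 and 121 in the E17 pair, and 79.9 and 125 at P0. All libraries from E14 on were below both of E12.5. The log2 change was -0.66 (SE 0.18, limma-voom adjusted p = 0.014) at E17 and -0.85 (SE 0.18, limma-voom adjusted p = 0.00395) at P0. Under total counts the change to P0 was -0.31 and not called.

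Eif3d, a subunit that can bind the mRNA cap itself, was at 48.0 ± 0.72 CPM (SD, n = 2) at E12.5, 44.8 ± 8.3 in the E14 pair, 40.5 ± 0.095 at E15.5, 26.4 ± 1.7 in the E17 pair, and 28.3 ± 4.6 at P0. Its step from E15.5 to E17, -0.62 (SE 0.15, limma-voom adjusted p = 0.0419), was the only call among the 34 members in that interval, 2.94% against 9.04% of all genes. That call was lost without either E12.5, E15.5 or E17 library, with values between -0.56 and -0.68, and its change from E12.5 to E17 was -0.87 (SE 0.15, limma-voom adjusted p = 0.00159). Eif3i, a WD-repeat subunit, was at 92.6 ± 4.9 CPM (SD, n = 2) at E12.5, 91.6 ± 2.5 in the E14 pair, 72.7 ± 0.81 at E15.5, 62.5 ± 3.8 in the E17 pair, and 64.4 ± 7.7 at P0. Its step from E14 to E15.5 was -0.33 (SE 0.11, limma-voom adjusted p = 0.0408) and was called in 7 of 20 alternatives. It was lost without any one embryonic library, at -0.31 to -0.36, and under total counts, at -0.038. Eif3b, the RNA-binding scaffold subunit, went from 41.0 ± 0.88 CPM (SD, n = 2) at E12.5 to 25.5 ± 1.0 at E17 and 26.8 ± 5.0 at P0, with -0.60 (SE 0.13, limma-voom adjusted p = 0.00359) at P0.

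For some subunits the value at E17 was lower than that at P0. Eif3l went from 47.1 ± 1.9 CPM (SD, n = 2) at E12.5 to 28.4 ± 0.24 at E17 and 35.3 ± 4.4 at P0, with -0.73 (SE 0.11, limma-voom adjusted p = 0.000606) at E17 and -0.41 (SE 0.11, limma-voom adjusted p = 0.0106) at P0. Eif3c, a core subunit, and Eif3g, an RNA-binding subunit, were called lower at E17, at -0.39 (SE 0.10) and -0.33 (SE 0.09), and not at P0, at -0.10 (SE 0.10) and -0.18 (SE 0.09). The rise from E17 to P0 was not called for any of these, at 0.32 for Eif3l, 0.29 for Eif3c and 0.15 for Eif3g. Eif3f, also lower at P0 (-0.34, SE 0.10, limma-voom adjusted p = 0.019), and Eif3l changed sign under total counts, with 0.19 and 0.12. Eif3f was not called at P0 without E12.5 replicate 2 (-0.25) or P0 replicate 2 (-0.29), nor was Eif3l without E12.5 replicate 2 (-0.37) or P0 replicate 1 (-0.30).

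The remaining subunits varied in how far they moved. Eif3a, the largest subunit, was called lower at P0 (-0.55, SE 0.20, limma-voom adjusted p = 0.0413), in 7 of 20 alternatives, and left-out libraries moved it between -0.25 without P0 replicate 1, where it was not called, and -0.96 without P0 replicate 2, where it was. The alternatives for Eif3a include E17 in place of P0, where it was called at -0.58. Eif3h passed the test at P0 (limma-voom adjusted p = 0.0391) but its -0.25 was under the fold threshold. Eif3e, at -0.59 (SE 0.25), was not called. Eif3k, an accessory subunit, was at 396 to 457 CPM in all embryonic libraries and at 333 and 413 CPM at P0 (-0.18, SE 0.12). Eif3j1, a loosely bound subunit, could not be told from its copy Eif3j2, whose counts were between 99.2% and 100% of those of Eif3j1 in every library. The value for Eif3j1 (-0.72, SE 0.42) is therefore uncertain, and its P0 libraries differed by 3.06-fold.

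**Figure D4:**
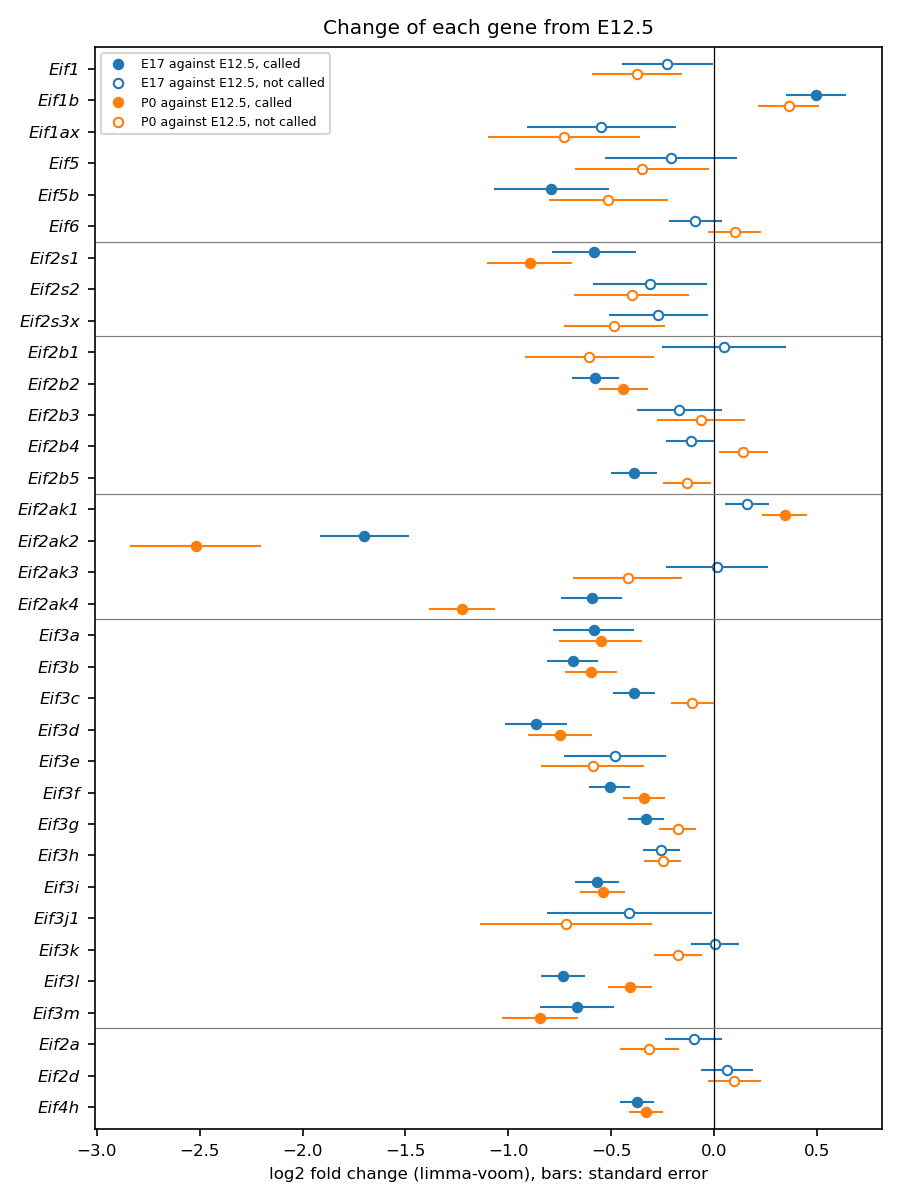
Fitted log2 fold change from E12.5 to E17 (blue) and to P0 (orange) for each member, with the standard error as bars; filled points were called by limma-voom and open points were not. Both comparisons share the E12.5 libraries. Most eIF3 subunits lie between -0.3 and -0.9 at E17, Eif2ak2 lies at -1.70 and -2.52, and Eif1b and Eif2ak1 hold the only called rises. Under total-count scaling the P0 values would move up by about the shift of all genes, 0.51.

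Of the last 3 members, Eif4h, a stimulator of the eIF4A helicase, was called lower and the alternative Met-tRNA carriers were not. At P0 that is 33.3% of the 3, where 32% of all genes were called lower. Eif4h (ENSMUSG00000040731) was at 342 and 354 CPM at E12.5, 367 and 360 in the E14 pair, 311 and 328 at E15.5, 268 and 270 in the E17 pair, and 270 and 285 at P0. The 4 earliest libraries were above all 6 later ones. The log2 change was -0.37 (SE 0.08, limma-voom adjusted p = 0.00544) at E17 and -0.33 (SE 0.08, limma-voom adjusted p = 0.00844) at P0, close to the fold threshold. Under total counts the change to P0 was 0.20, and the call to P0 was lost without E12.5 replicate 2 (-0.31), E15.5 replicate 2 (-0.32) or P0 replicate 1 (-0.29). Eif2a was at -0.31 (SE 0.14) and Eif2d at 0.10 (SE 0.13) at P0, and neither was called at any step.

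By step, few members moved. From E12.5 to E14 limma-voom called 0 of 34, where 0.638% of all genes were called (0.497% higher and 0.141% lower). At an unadjusted p under 0.05 the count was also 0, against 8.28% of all genes higher and 7.56% lower, and edgeR and DESeq2 called 0. From E14 to E15.5, the step with the most calls in the table (36.1% of all genes), 2 members were called lower, Eif2ak2 and Eif3i. That is 5.88% of members, where 19.6% of all genes were called lower and 16.5% higher. No member was called higher by limma-voom or edgeR, 1 was by DESeq2, and 1 was by limma-voom when P0 replicate 1 or P0 replicate 2 was left out. At an unadjusted p under 0.05, 1 member was higher and 5 were lower, against 21.8% and 24.2% of all genes. The median member changed by -0.12 in this step with TMM and by 0.18 with total counts, and by -0.11 under both once the shift of all genes was taken off.

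From E15.5 to E17 the median member changed by -0.19, and 28 of 34 were fitted below 0. Of all 13484 genes 6742 were, with a median of -4.6e-05. The call on Eif3d was the only one, where 5.61% of all genes were called higher and 3.43% lower. At an unadjusted p under 0.05, 7 members were lower and 0 higher, against 11.2% and 14.5% of all genes. From E17 to P0 the median was 0.02, and Eif2ak4 was called lower, where 11.1% of all genes were called lower and 9.46% higher. At an unadjusted p under 0.05, 2 members were higher and 2 lower, against 16.9% and 19% of all genes. Here the count depended on which P0 library was left out. The F test over all stages passed 14 members, where 63.8% of all genes passed, and that count depended on the P0 libraries too. The count of 12 called lower from E12.5 to P0 depended on P0 replicate 2 and on E12.5 replicate 2. The ranges are given in the last section.

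Other initiation-associated genes outside the set are given for context. Of 17, 2 were called higher and 5 lower at P0 than at E12.5, or 41.2%, where 62.1% of all genes were called. Pdcd4, an inhibitor of the eIF4A helicase, went from 177 and 148 CPM at E12.5 to 80.2 and 81.1 at E17 and 51.6 and 79.1 at P0 (-1.31, SE 0.18, limma-voom adjusted p = 0.000357). Eif4b, which stimulates the same helicase as Eif4h, went from 28.9 and 32.5 CPM at E12.5 to 14.04 and 14.9 at E17 and 10.7 and 17.8 at P0 (-1.07, SE 0.25, limma-voom adjusted p = 0.00522). A cofactor and an inhibitor of eIF4A were thus both lower late than early. The median log2 change of these 17 genes was -0.26.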

How the data were processed

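Ribo-seq was analysed in 10 libraries, 2 per stage, grouped by the stage in their labels. The authors deposited whole-number footprint counts per gene, not scaled for depth. Per the study's methods, trimmed and collapsed reads were cleared of rRNA, tRNA and snoRNA and aligned to coding transcripts and genome of a GENCODE mouse release with STAR (version 2.7.0 in the submitters' processing notes, another in the methods), and reads with several matches were kept. The methods derive isoform abundances with DeepShape-prime and gene values with tximport. Whether the whole-number table came from those steps, and how reads shared by genes were split in it, is not given in the sources used here. Symbols were matched for 22274 of 22373 identifiers. The 34 members and all gene lists were chosen with earlier results of these data known.

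The filter kept 13484 genes that reached 32 footprints in at least 1 stage, both libraries added. Counts were scaled by TMM (edgeR 4.0.16) and tested with limma-voom (limma 3.58.1, R 4.3.3), with 1 coefficient per stage over all 10 libraries, as two-sided tests with Benjamini-Hochberg adjustment over every gene kept. Calls needed an adjusted p under 0.05 and a log2 change of at least 0.32 either way. The F test for any change from E12.5 had no fold threshold. Since replicates are pools, p-values measure the spread between pools. Values in all libraries are given for the kinases, Eif1, Eif1b, the eIF2 genes and, in each group, the members with the largest called rise and fall from E12.5 to P0. Up to 3 genes of each context list are named by size of that change among those called, with Impact and Atf4 in any case, and other genes named were chosen after their values were seen. Alternatives were other library sizes, filters, tools (edgeR, DESeq2 1.42.0), sample weights, a replicate block, only the stages compared, and each library left out. E17 in place of P0 was added after the data were seen and is counted among the alternatives for the change from E12.5 to P0. A fit without both P0 libraries was added too and is counted for the steps up to E17. Code was tested on simulated counts. Proteins and coding lengths were not used here.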

Additional observations from a re-analysis of the deposited data

How the results depend on the processing

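The direction and calls of Eif2ak2 at E15.5 against E14, and of Eif2ak2 and Eif2ak4 at P0 against E12.5, held in each alternative that gave a value, 19 for Eif2ak2 and 20 for Eif2ak4 (a minimum mean of 100 counts left out Eif2ak2). Counts of members called were less steady. The shares of all genes called under each setting are not given beside them, so they only describe how the member counts depend on the setting. With total counts as library sizes, E15.5 against E14 gave 4 higher and 1 lower (0 and 2 in the report), P0 against E17 gave 2 higher and 0 lower (0 and 1), and P0 against E12.5 gave 9 higher and 2 lower (1 and 12). With total counts outside histone genes these were 1 and 1, 1 and 1, and 2 and 13, and E17 against E15.5 gave 2 lower (1 in the report). Without a filter, E15.5 against E14 gave 1 lower, E17 against E15.5 gave 0 lower and P0 against E12.5 gave 0 higher. A minimum mean of 100 counts gave 1 lower at E15.5 against E14, 1 higher at P0 against E17 and 2 higher at P0 against E12.5. edgeR gave 1 lower at E15.5 against E14 and 0 lower at E17 against E15.5. DESeq2 gave 1 higher, 2 lower, then 1 higher and 0 lower over the last 3 steps. With only the stages compared, E15.5 against E14 gave 1 higher, E17 against E15.5 gave 5 lower, P0 against E17 gave 0 lower, and P0 against E12.5 gave 0 higher and 4 lower. Sample weights gave 1 higher, 5 lower, 0 lower and 0 higher in the same order. Without both P0 libraries, chosen after seeing the data, E15.5 against E14 gave 1 higher and E17 against E15.5 gave 4 lower.

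With each library left out in turn, E15.5 against E14 gave 0 to 1 higher and 1 to 3 lower, E17 against E15.5 gave 0 to 4 lower, P0 against E17 gave 0 to 4 higher and 0 to 11 lower, P0 against E12.5 gave 0 to 2 higher and 7 to 22 lower, and the F test gave 9 to 30. A stage left with 1 library was assumed to vary like the others. The share of all genes called in these fits is not given here, so the ranges show only a dependence on single libraries. From E12.5 to P0, total counts reversed Eif1 (0.16), Eif2s2 (0.13), Eif2s3x (0.048), Eif2b2 (0.083), Eif2ak3 (0.10), Eif3f (0.19), Eif3l (0.12) and Eif4h (0.20). Without P0 replicate 1, Eif1 (0.039) and Eif2s2 (0.042) reversed, and without P0 replicate 2 they were -0.78 and -0.91. Reversed too were Eif2ak3 without P0 replicate 2 (0.17) and with E17 in place of P0 (0.016).

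Replicate numbers did not pair the libraries in 1 direction: over 10 pairs of stages, the correlation of same-numbered deviations ran from -0.63 to 0.43. The 4 below -0.1 were the pairs with E12.5, and the lowest was that of E12.5 with P0. The 5 above 0.1 were pairs among the later stages, where E14 with E17 was at -0.044. A replicate block treats same-numbered libraries as alike in all stages, so it does not model a reversed order at E12.5. With a replicate block, the counts were 1 higher and 1 lower at E15.5 against E14, 0 lower at E17 against E15.5, 0 lower at P0 against E17, 1 higher and 11 lower at P0 against E12.5, and 12 by the F test. Levels per kilobase of coding sequence were not run. The precision at P0 is limited by 2 pools that differ.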
